A study of Mus musculus with 48 samples.

Results

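Well-known target genes of the antioxidant transcription factor NRF2, 10 in number, were followed in mouse fibroblasts over 48 hourly arrays. They were Hmox1, Nqo1, Gclc, Gclm, Txnrd1, Srxn1, Slc7a11, Gsta4, Gstm1 and Osgin1. The probe sets were found by gene symbol, and the genes were measured by 21 of the 45037 probe sets of the array, out of 18193 genes with a probe set of their own. Each gene is shown by its brightest probe set unless another is named. NIH3T3, an established mouse embryonic fibroblast line grown to confluence, had been treated with forskolin, an activator of adenylyl cyclase that is used to bring the clocks of cultured cells into step. Cells were collected from hour 20 to hour 67 after forskolin and profiled on 1 array per hour. The question posed by the design is which transcripts rise, fall or cycle over the 48 h. All 48 arrays came from forskolin-treated cells, so an effect of forskolin cannot be told apart from one of time in confluent culture, and no hour had a second array. The error of each value below is therefore the scatter of the arrays around a fitted curve.

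NRF2, the product of Nfe2l2, is held in the cytoplasm by KEAP1, which passes it to a ubiquitin ligase built on CUL3 and RBX1 for destruction. Oxidants and electrophiles modify cysteines of KEAP1, whereupon NRF2 accumulates, enters the nucleus, pairs with a small MAF protein and binds antioxidant response elements, where BACH1 can repress some of the same genes. Its targets detoxify haem and quinones, make glutathione and couple it to electrophiles, and keep thioredoxin and peroxiredoxins reduced.

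The core of the antioxidant response element, TGACNNNGC, was looked for on both strands in the RefSeq promoter windows of GRCm38.p6, which run from 250 bases before to 50 bases after a gene's start. Of the 10 genes, 7 had such windows, 10 windows in all; Hmox1, Gclc and Gsta4 had none in the table. The core was found for 3 genes, in 3 of the 10 windows, and it was present in 12.4% of the 32851 windows of all genes. The matches are shown because they are the letters in these windows that NRF2 and its MAF partner could recognise; capitals mark the core, and all 3 read 5′ to 3′ on the minus strand, opposite to the gene.
Gclm, chr3:122245415-122245439, centred 130 bases before the start that defines its window: gtgagagtTGACGGTGCgcccggga
Txnrd1, chr10:82859106-82859130, centred 88 bases before the start of one of its windows: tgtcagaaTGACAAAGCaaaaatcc
Srxn1, chr2:152105544-152105568, centred 32 bases after the start that defines its window: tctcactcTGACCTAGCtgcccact
The E-box CACGTG, at which clock proteins bind, and the cyclic AMP response element TGACGTCA were present in 7.15% and 1.79% of all windows and in 0 of the 10 windows of these genes. These are letter matches only, and the windows do not include distal enhancers.

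All values are log2 of the deposited intensity. The median of all probe sets was 6.67 and the upper quartile 13.20, and array medians lay between 6.58 and 6.71. Of 9 measured fibroblast markers, 9 lay above the upper quartile, at 16.4 to 19.01. Of the macrophage markers, 1 of 6 lay above the median, the highest at 10.4, and no measured marker of epithelial, endothelial, adipocyte or hepatocyte cells did, the highest at 5.63. The 3′ minus 5′ difference of the β-actin control probe sets, a measure of RNA integrity and of the length of the labelled product, had a median of 1.13 and reached 2.42. It exceeded 1.4 on 10 arrays, 7 in hours 20 to 43 and 3 in hours 44 to 67. The hybridisation control BioB stood 0.85 higher at hours 52 to 55 than at the other hours. In bulk RNA of this kind, fewer cells of a type and less RNA per cell cannot be told apart.

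The 10 genes did not move as one. Over the 48 h, 4 genes rose (Gsta4, Gstm1, Osgin1 and Hmox1) and 4 fell (Nqo1, Srxn1, Gclc and Txnrd1) by limma's moderated test of a straight line at an adjusted p of 0.05. Gclm and Slc7a11 did not pass. Among all probe sets, 14.2% rose and 16.2% fell, and among those above the median level, where 9 of the 10 genes lay, 26.4% rose and 26.4% fell. The median slope of the 10 genes was 0.03 per 24 h, and that of all probe sets was −0.003.

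**Figure D1:**
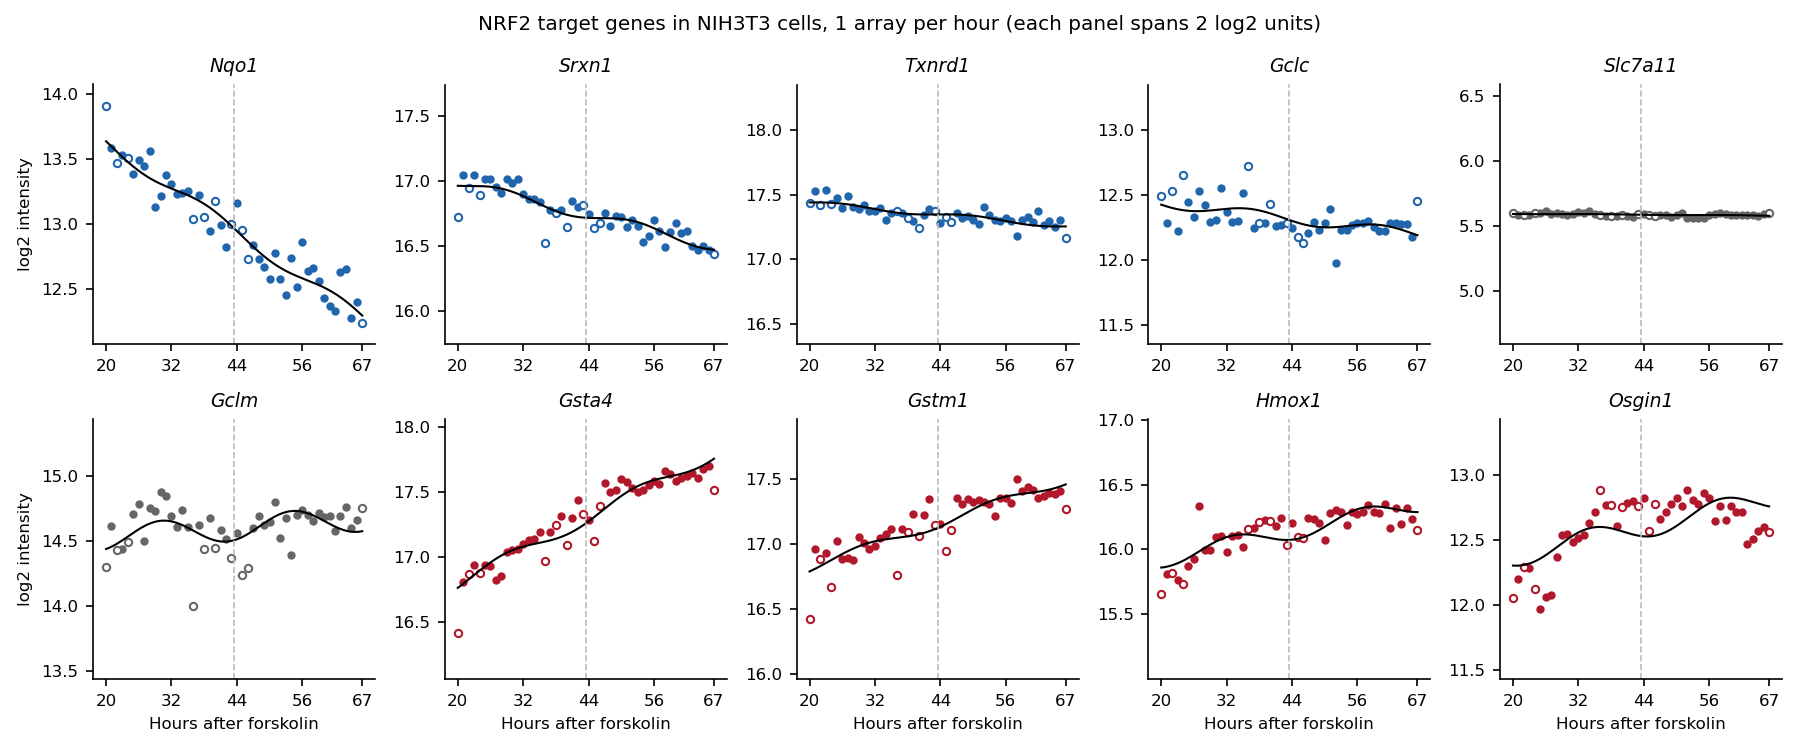
Log2 intensity (vertical axis, 2 log2 units in every panel) of the 10 genes against hours after forskolin, 1 point per array. Open points are the 10 arrays with a β-actin difference over 1.4, the line is the fitted trend with its 24 h cosine, the dashed line parts the windows of 24 h, and colour marks genes that fell (blue), rose (red) or did not pass (grey); Nqo1 fell from 13.91 at hour 20 to 12.24 at hour 67, whereas Gsta4 rose from 16.42 at hour 20 to 17.70 at hour 66.

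Hmox1 encodes haem oxygenase, which opens the haem ring and releases iron and carbon monoxide. Its level ran from 15.65 through a median of 16.07 to 16.34 in hours 20 to 43 and from 16.07 through 16.26 to 16.35 in hours 44 to 67. The windows overlapped, with 2 of the 24 later arrays above the highest earlier one, which was hour 27. The slope was 0.21 ± 0.03 per 24 h (SE; adjusted p = 2.6e-08), a fitted 1.34-fold rise over 47 h; without hours 20 to 25 it was 0.14 (adjusted p = 1.8e-04). Hmox1 was low at the start, with a median of 15.79 over hours 20 to 25, and stood at 16.22 over hours 62 to 67.

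Nqo1 encodes the quinone oxidoreductase that reduces quinones in a single step of electron-pair transfer, and it had the steepest slope of the 10. Its level ran from 12.83 through a median of 13.25 to 13.91 in the earlier window and from 12.24 through 12.64 to 13.16 in the later one. Of the 24 later arrays, 20 lay below the lowest earlier array. The slope was −0.69 ± 0.04 per 24 h (adjusted p = 3.1e-21), a fitted 2.56-fold fall over 47 h. The median of the 6 first hours was 13.52 and that of the 6 last was 12.37, a 2.23-fold difference.

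Glutathione synthesis begins with glutamate-cysteine ligase, made of the catalytic subunit Gclc and the modifier subunit Gclm. Gclc ran from 12.22 through 12.32 to 12.72 in the earlier window and from 11.97 through 12.26 to 12.45 in the later one. Its fall was small against the hourly scatter, and 18 of the 24 later arrays lay within the earlier range. The slope was −0.12 ± 0.03 per 24 h (adjusted p = 0.0021), and the dimmer probe set gave −0.16 ± 0.06 (adjusted p = 0.038). The brighter Gclc probe set is of a kind whose probes can match related transcripts.

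Gclm gave opposite answers from its probe sets. The brighter one ran from 13.99 through 14.60 to 14.87 in the earlier window and from 14.24 through 14.66 to 14.80 in the later one, with a slope of 0.07 ± 0.04 (adjusted p = 0.14). The dimmer one ran from 14.27 through 14.49 to 14.86 and then from 14.09 through 14.41 to 14.85, and it fell by 0.12 ± 0.04 per 24 h (adjusted p = 0.013). Around their own lines the probe sets moved against each other, with a Pearson r of −0.66 over the 48 hours. At hour 36 the brighter one was at its lowest, 13.99, and the dimmer one at 14.85. After removal of its line, the β-actin difference was farthest from its median at hours 36 and 45. The r of the brighter probe set with that difference was −0.76 (Spearman's rho −0.60, adjusted permutation p = 2.6e-05, r = −0.60 without hours 36 and 45), and that of the dimmer one was 0.65 (rho 0.48, adjusted p = 5.7e-05, r = 0.47). Without the 10 arrays over 1.4 these r values were −0.23 and 0.31, and the brighter probe set had a slope of −0.005 (adjusted p = 0.90). No direction over time could be given for Gclm.

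**Figure D2:**
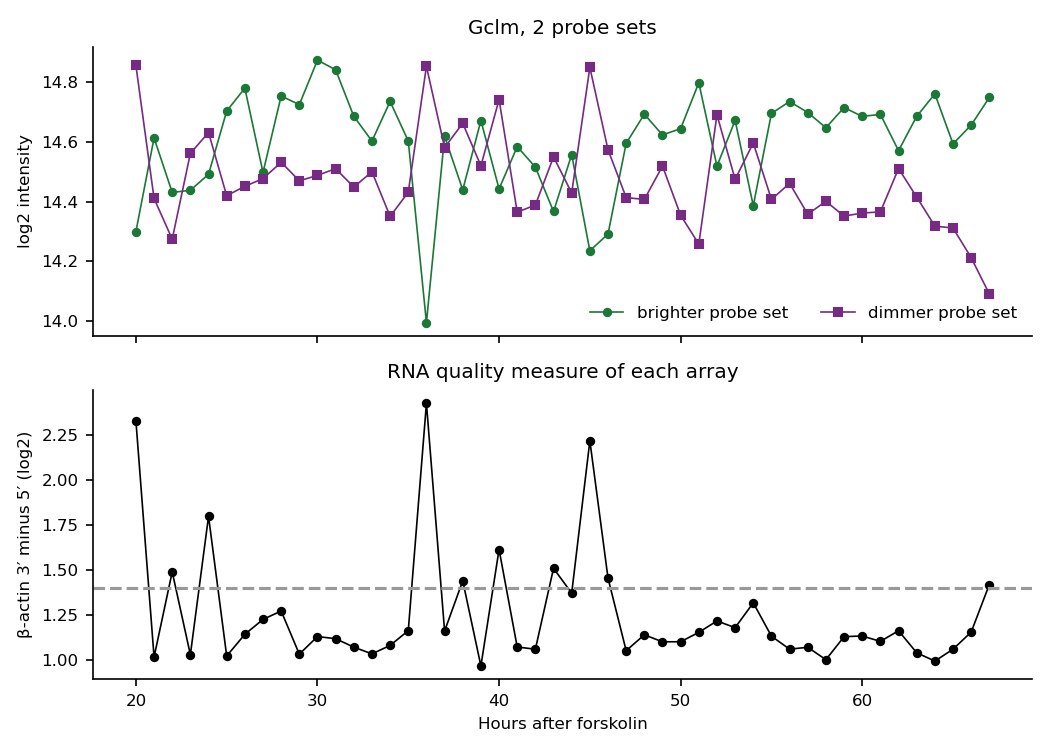
Log2 intensity of the brighter (circles) and dimmer (squares) Gclm probe set (top) and the β-actin 3′ minus 5′ difference in log2 units (bottom) against hours after forskolin, 1 point per array. The Gclm probe sets part at hours 20, 36 and 45, where the β-actin difference is above 2.2; the dashed line marks 1.4.

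Slc7a11 encodes the cystine carrier that supplies the cysteine of glutathione. Its probe set stayed between 5.56 and 5.61 on all 48 arrays, near the lowest log2 value of any probe set, 5.12, and the other probe set lay between 5.42 and 5.45. The slope was −0.01 (adjusted p = 0.081). Neither probe set gave a signal above the floor of the array from which a change could be read, which does not show that the gene was silent.

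Txnrd1 encodes cytosolic thioredoxin reductase, and Srxn1 encodes sulfiredoxin, which restores over-oxidised peroxiredoxins. Txnrd1 ran from 17.24 through 17.39 to 17.53 and then from 17.16 through 17.30 to 17.40. Its scatter around the fit was the least of the 9 genes above the median level, and a slope of −0.09 ± 0.01 passed (adjusted p = 2.7e-07). The dimmer Txnrd1 probe sets fell more steeply, by 0.29 ± 0.06 (adjusted p = 1.1e-04) and 0.15 ± 0.05 (adjusted p = 0.0099). Unlike the brightest, these probe sets were related to the β-actin difference, with r = −0.63 and −0.74 after removal of the line (rho −0.38 and −0.54, adjusted permutation p = 4.2e-05 and 2.6e-05, r = −0.46 and −0.56 without hours 36 and 45, and −0.46 and −0.53 without the 10 arrays over 1.4), and its part in their slopes was not tested. Srxn1 ran from 16.52 through 16.88 to 17.05 and then from 16.44 through 16.63 to 16.75. Its slope was −0.25 ± 0.02 (adjusted p = 1.9e-12), a fitted 1.399-fold fall. All 4 Srxn1 probe sets had negative slopes and 3 passed, and the dimmest gave −0.10 ± 0.09 (adjusted p = 0.30). The brightest is of a kind whose probes can match related transcripts. From brightest to dimmest, the others had r = −0.61, −0.91 and −0.82 with the β-actin difference after removal of the line (adjusted permutation p = 4.2e-05, 2.6e-05 and 2.6e-05). Without hours 36 and 45 these were −0.56, −0.92 and −0.74, and without the 10 arrays 0.24, −0.50 and 0.16. Its part in their slopes was not tested.

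The glutathione transferases Gsta4 and Gstm1 couple glutathione to electrophiles, Gsta4 with a preference for the lipid peroxidation product 4-hydroxynonenal. Gsta4 ran from 16.42 through 17.06 to 17.44 in the earlier window and from 17.12 through 17.57 to 17.70 in the later one. Of the 24 later arrays, 21 lay above the highest earlier array. The slope was 0.51 ± 0.03 per 24 h (adjusted p = 2.1e-19), a fitted 2.004-fold rise. Gstm1 ran from 16.42 through 17.02 to 17.34 and then from 16.95 through 17.35 to 17.50, and 13 later arrays exceeded the earlier range. Its slope was 0.34 ± 0.03 (adjusted p = 2.0e-12), a fitted 1.60-fold rise. Of its other probe sets, 2 rose as well, by 0.35 ± 0.03 (adjusted p = 6.9e-13) and 0.15 ± 0.03 (adjusted p = 3.9e-04), and the last stayed at the floor near 5.48. The lead Gstm1 probe set is of a kind whose probes can also bind other transcripts, so the share of its close relatives, such as Gstm2, in this signal is uncertain.

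Osgin1 encodes a growth inhibitor that is induced by oxidative stress, and its course was not a line. It rose from a median of 12.24 over hours 20 to 31 to 12.76 over hours 32 to 43, held 12.78 over hours 44 to 55 and fell to 12.65 over hours 56 to 67. The lowest array was hour 25, at 11.97, and the highest was hour 36, at 12.89. The slope over the whole course was 0.23 ± 0.05 (adjusted p = 4.9e-04), and without hours 20 to 25 it was 0.12 and missed the threshold (adjusted p = 0.12).

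Whether the trends held through both windows of 24 h was tested with a line that may bend at hour 44. That hour was fixed in the model, so the time of a turn was not estimated. A change of slope passed for 3 of the 10 genes, all downward, where 4.4% of all probe sets bent downward and 3.03% upward. No such share was taken above the median level, where 9 of the 10 genes lay. Osgin1 rose by 0.74 ± 0.06 per 24 h before hour 44 and fell by 0.33 ± 0.06 after it, a change of −1.06 ± 0.11 (adjusted p = 5.4e-10). Hmox1 went from 0.40 ± 0.05 to 0.02 ± 0.05, a change of −0.38 ± 0.09 (adjusted p = 0.0042). Gsta4 went from 0.68 ± 0.05 to 0.33 ± 0.06, a change of −0.35 ± 0.10 (adjusted p = 0.015). The calls of Hmox1 and Gsta4 did not hold under every alternative. With the 10 arrays over 1.4 left out, Hmox1 gave −0.35 (adjusted p = 0.070), and without hours 20 to 25 −0.17 (adjusted p = 0.20). Gsta4 gave −0.36 (adjusted p = 0.076) with runs of 4 consecutive hours as a random block and −0.30 (adjusted p = 0.056) without hour 67. Gstm1 bent in the same direction by −0.24 ± 0.11 and missed (adjusted p = 0.10), but passed with the β-actin difference in the model (−0.31, adjusted p = 2.0e-05). Others bent upward and missed as narrowly. Gclc gave 0.24 ± 0.12 (adjusted p = 0.10), Gclm 0.31 ± 0.15 (adjusted p = 0.10) and Txnrd1 0.11 ± 0.05 (adjusted p = 0.091). Slc7a11, at the floor, gave 0.03 ± 0.01 (adjusted p = 0.090). Nqo1 and Srxn1 gave 0.18 ± 0.13 (adjusted p = 0.25) and 0.01 ± 0.09 (adjusted p = 0.95).

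**Figure D3:**
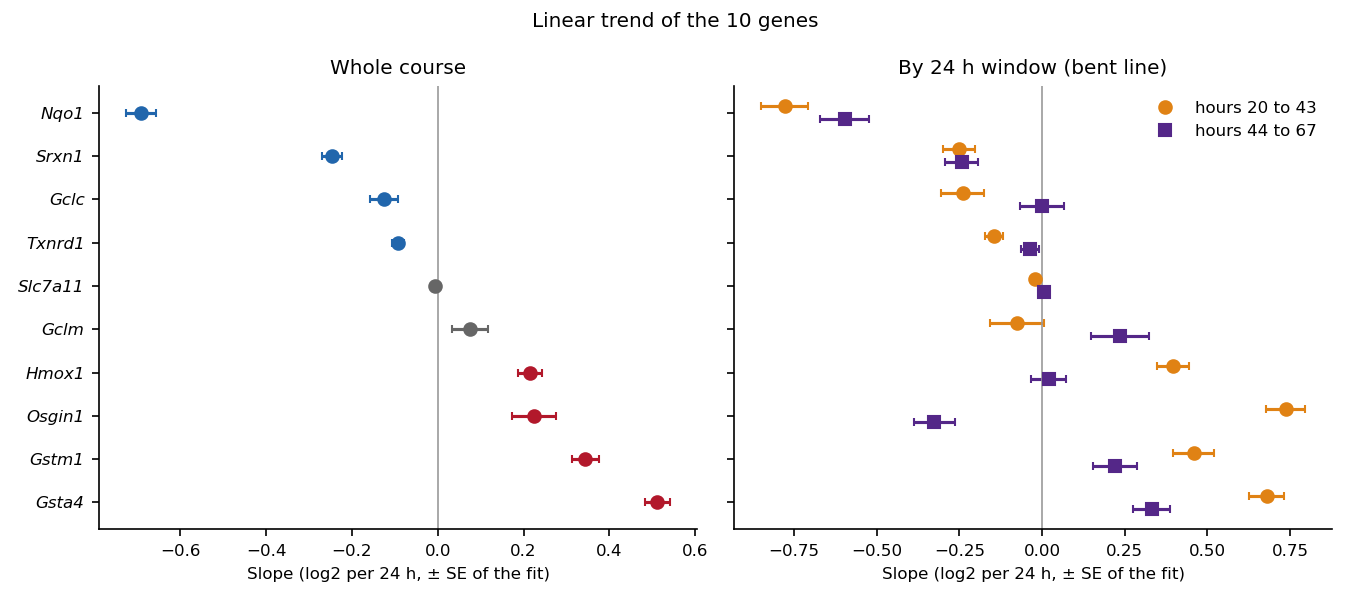
Slope of each gene in log2 per 24 h (horizontal axis, bars are the SE of the fit), over the whole course (left, colours as in the hourly plot) and before and after hour 44 (right). Gsta4 and Nqo1 kept their direction in both windows, whereas Osgin1 changed from 0.74 to −0.33.

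None of the 10 genes passed limma's test of a 24 h cosine beside the line (0 of 10), where 132 probe sets, 0.293%, passed. At an unadjusted p under 0.05 there were 2 genes, and no share of all probe sets was taken at that limit. The 2 were Gclm, with an amplitude from mean to peak of 0.10 ± 0.03 (adjusted p = 0.35), and Hmox1, with 0.07 ± 0.02 (adjusted p = 0.36). Beside these 2 genes, the dimmer Srxn1 probe sets had an unadjusted p under 0.05 and missed after adjustment. From brightest to dimmest they gave 0.06 ± 0.01 (adjusted p = 0.10), 0.16 ± 0.05 (adjusted p = 0.25) and 0.17 ± 0.07 (adjusted p = 0.50). The brightest Srxn1 probe set gave 0.04 ± 0.02 (adjusted p = 0.66). The median amplitude of the 10 genes was 0.04, against 0.02 for all probe sets and 0.06 for those above the median level. At 12 h 0 of the 10 genes and 0% of all probe sets passed; 0 of the genes and 579 probe sets had an unadjusted p under 0.05. At 8 h 0 of the genes and 0% of all probe sets passed, and the counts at an unadjusted p under 0.05 were 1, Slc7a11 at the floor of the array, and 20028. Fisher's G-test, which asks whether 1 of the 23 Fourier periods holds more of the variance than chance would give, called 9 of the 10 genes at a Storey q under 0.05, where 52.2% of all probe sets were called. In all 9, which include Slc7a11 at the floor of the array, the period was that of the whole course, 48 h. Gclm, with its peak at 24 h, missed (q = 0.38). At 24 h the test called 0 of the 10 genes and 1.04% of all probe sets. After removal of the line, Osgin1 alone of the 10 was called (48 h, q = 2.3e-07), where 1.84% of all probe sets were called. These tests do not show that a rhythm was absent.

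Around their own lines the 10 genes were compared in 45 pairs over the 48 hours, with 100000 permutations of the hours and adjustment over the pairs. The permutations treat arrays as exchangeable, although neighbouring hours may share a state. Of the pairs, 11 passed with a positive r and 6 with a negative r. The 6 were Nqo1 with Gsta4 and with Gstm1, Gclc with Srxn1, with Gsta4 and with Gstm1, and Slc7a11, at the floor, with Osgin1. No share of pairs of other probe sets was taken, so these counts are not read as a trait of the 10 genes. The glutathione transferases Gsta4 and Gstm1 were the closest pair, with r = 0.85 (Spearman's rho 0.78, permutation p = 1e-05, the smallest that 100000 permutations can give, adjusted p = 1.5e-04). It stayed at 0.77 without the 2 arrays farthest from the median of Gsta4, at 0.72 with the β-actin difference removed and at 0.77 without the 10 arrays over 1.4. Other pairs moved with the β-actin difference. Srxn1 and Gstm1 had r = 0.66 (rho 0.47, permutation p = 1e-05, adjusted p = 1.5e-04, and 0.41 without 2 arrays), but 0.07 once that difference was removed. Gclm and Srxn1 had 0.64 (rho 0.41, permutation p = 1e-05, adjusted p = 1.5e-04, 0.48 without 2 arrays), and 0.13 after removal. Osgin1 and Gsta4 went the other way, from 0.44 (rho 0.48, permutation p = 0.0015, adjusted p = 0.011, 0.33 without 2 arrays) to 0.65. Hmox1 and Osgin1 had 0.42 (rho 0.53, permutation p = 0.0029, adjusted p = 0.014, 0.61 without 2 arrays) and 0.45 after removal, but 0.25 without the 10 arrays, where it missed (adjusted p = 0.23). Without the 10 arrays, 3 positive pairs and 0 negative pairs passed: Gsta4 with Gstm1, Gsta4 with Osgin1 (0.58, adjusted p = 0.0020) and Gclm with Slc7a11 (0.47, adjusted p = 0.040), the last at the floor.

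**Figure D4:**
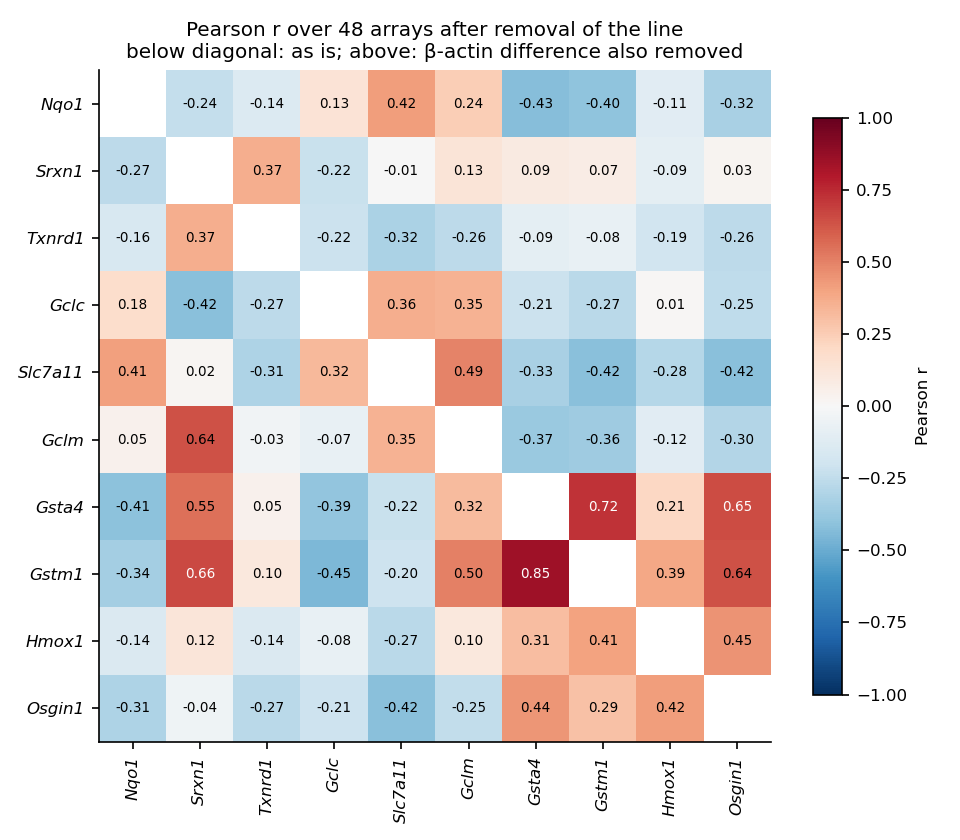
Pearson r of each pair of genes over the 48 arrays after removal of each gene's line (below the diagonal) and after removal of the β-actin difference as well (above the diagonal); both axes list the 10 genes, and the colour scale runs from −1 to 1. Gsta4 and Gstm1 have 0.85 below and 0.72 above the diagonal, whereas Srxn1 and Gstm1 go from 0.66 to 0.07.

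The β-actin difference itself was set against all 21 probe sets after removal of the line, with adjustment over 21 relations, of which 14 passed. The smallest r among them was 0.316 in absolute size, and 38.5% of all probe sets, or 69% of those above the median level, where 18 of the 21 lay, had one at least as large. The relation was thus common on these arrays. Gstm1 gave −0.83 (rho −0.67, adjusted permutation p = 2.6e-05, r = −0.79 without hours 36 and 45, −0.45 without the 10 arrays over 1.4). Srxn1 gave −0.77 (rho −0.58, adjusted permutation p = 2.6e-05, r = −0.70 without those hours, −0.15 without the 10 arrays). Gsta4 gave −0.66 (rho −0.48, adjusted permutation p = 7.0e-05, r = −0.61 without those hours, −0.28 without the 10 arrays). Gclc passed with 0.37 (rho 0.30, adjusted permutation p = 0.019, 0.32 without hours 36 and 45), but gave 0.01 without the 10 arrays. The 10 arrays hold the highest values of the difference, and a narrower range of it by itself tends to shrink an r. The smaller r values without them therefore cannot show whether the relations rested on those arrays. The brightest probe sets of Nqo1, Hmox1, Txnrd1, Slc7a11 and Osgin1 missed, at 0.15, −0.23, −0.18, −0.03 and 0.07. With the difference in the trend model the slopes of Nqo1, Gsta4, Gstm1 and Srxn1 were −0.68, 0.48, 0.30 and −0.28, and 4 genes rose and 4 fell as before.

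The regulators of NRF2 were all measured, 12 of 12, and all lay above the median level. Of these, 2 rose and 5 fell, where 26.4% of the probe sets above the median level rose and 26.4% fell. With the β-actin difference in the model, or without the 10 arrays over 1.4, 4 fell, and after quantile normalization or with a term for hours 52 to 55, 6 fell. Nfe2l2 itself fell slightly, by 0.09 ± 0.03 per 24 h (adjusted p = 0.031). Keap1, its inhibitor, gave −0.08 ± 0.03 and missed (adjusted p = 0.060). The ligase subunits Cul3 and Rbx1 fell by 0.10 ± 0.03 (adjusted p = 0.0044) and 0.19 ± 0.05 (adjusted p = 0.0041). The small MAF partners Mafk and Maff fell by 0.23 ± 0.05 (adjusted p = 9.8e-04) and 0.75 ± 0.11 (adjusted p = 5.7e-07), whereas Mafg gave −0.01 ± 0.03 (adjusted p = 0.71). The repressor Bach1 rose by 0.11 ± 0.02 (adjusted p = 1.3e-05), as did Sqstm1, the autophagy receptor p62 that can draw KEAP1 away, by 0.14 ± 0.02 (adjusted p = 5.9e-06), though its rise, 0.32 ± 0.04 before hour 44, gave way to −0.05 ± 0.04 after it (change of slope, adjusted p = 3.7e-04). Btrc, Gsk3b and Nfe2l1 gave −0.09 ± 0.05, 0.01 ± 0.01 and −0.04 ± 0.03 and missed.

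Other NRF2 targets were read from 5 lists of 39 genes, of which 32 were measured by a probe set of their own. Of these, 11 rose and 10 fell, and the median slope was 0.01. The lists are to be read against 14.2% of all probe sets that rose and 16.2% that fell, or 26.4% each way above the median level, where 27 of the 32 lay. Under the alternatives run for these lists, 11 to 13 rose and 10 to 11 fell. Among 13 glutathione genes, 3 rose and 5 fell. Gstm2, a transferase, rose by 0.32 ± 0.03 (adjusted p = 3.9e-11). Its abundant relative Gstp1 rose by 0.04 ± 0.01 (adjusted p = 0.0073), and Gsta3 by 0.21 ± 0.07 (adjusted p = 0.024) at a level of 5.88, below the median of the array. The glutathione exporter Abcc1 fell by 0.31 ± 0.03 (adjusted p = 2.2e-10), Abcc4 of the same family by 0.45 ± 0.11 (adjusted p = 7.7e-04), the cyclotransferase Ggct by 0.36 ± 0.06 (adjusted p = 1.0e-06) and glutathione synthetase, Gss, by 0.26 ± 0.06 (adjusted p = 6.8e-04), and glutathione reductase, Gsr, was the last of the 5, at −0.06 ± 0.02 (adjusted p = 0.0019).

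The counts of the remaining lists are read against the same shares, 14.2% up and 16.2% down, or 26.4% each way above the median level. Changes of slope are read against 4.4% of all probe sets that bent downward and 3.03% that bent upward, with no such share taken above the median level. Thioredoxin, Txn1, the only measured gene of its list, fell by 0.09 ± 0.01 (adjusted p = 3.2e-12). Of 5 NADPH-supplying genes, 0 rose and 2 fell, Pgd of the pentose phosphate pathway by 0.15 ± 0.02 (adjusted p = 2.9e-07) and transketolase, Tkt, by 0.16 ± 0.04 (adjusted p = 7.2e-04). The slope of Tkt went from 0.12 ± 0.06 before hour 44 to −0.46 ± 0.06 after it (change of slope, adjusted p = 2.4e-04). Of 6 haem and iron genes, 4 rose and 0 fell. They were the haem carrier Slc48a1, by 0.20 ± 0.03 (adjusted p = 4.2e-06), biliverdin reductase, Blvra, by 0.13 ± 0.03 (adjusted p = 0.0033), ferrochelatase, Fech, by 0.08 ± 0.02 (adjusted p = 4.2e-04), and the iron exporter Slc40a1, by 1.24 ± 0.15 (adjusted p = 6.1e-09) at a mean level of 6.12, below the median of the array; nearly all of its rise came after hour 44 (0.08 ± 0.25 before and 2.48 ± 0.26 after, adjusted p = 2.1e-04). Of 7 genes of quinone and carbonyl detoxification, 4 rose and 2 fell. Aldh3a1, an aldehyde dehydrogenase, rose by 0.73 ± 0.10 (adjusted p = 8.7e-08), epoxide hydrolase Ephx1 by 0.18 ± 0.04 (adjusted p = 8.1e-05), carbonyl reductase Cbr1 by 0.14 ± 0.03 (adjusted p = 7.3e-05) and the reductase Akr1b8 by 0.10 ± 0.03 (adjusted p = 0.0076). Like Osgin1, 2 of these rose before hour 44 and fell after it by the bent line. Aldh3a1 went from 1.86 ± 0.08 to −0.48 ± 0.08 per 24 h (adjusted p = 5.4e-16), and Ephx1 from 0.52 ± 0.05 to −0.18 ± 0.05 (adjusted p = 1.6e-07). Cbr3 missed the line test (adjusted p = 0.28). Its slope went from 0.24 ± 0.06 before hour 44 to −0.17 ± 0.06 after it (change of slope, adjusted p = 0.0067). Ugdh and Aox1 fell by 0.15 ± 0.02 (adjusted p = 9.9e-10) and 0.22 ± 0.07 (adjusted p = 0.010).

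**Figure D5:**
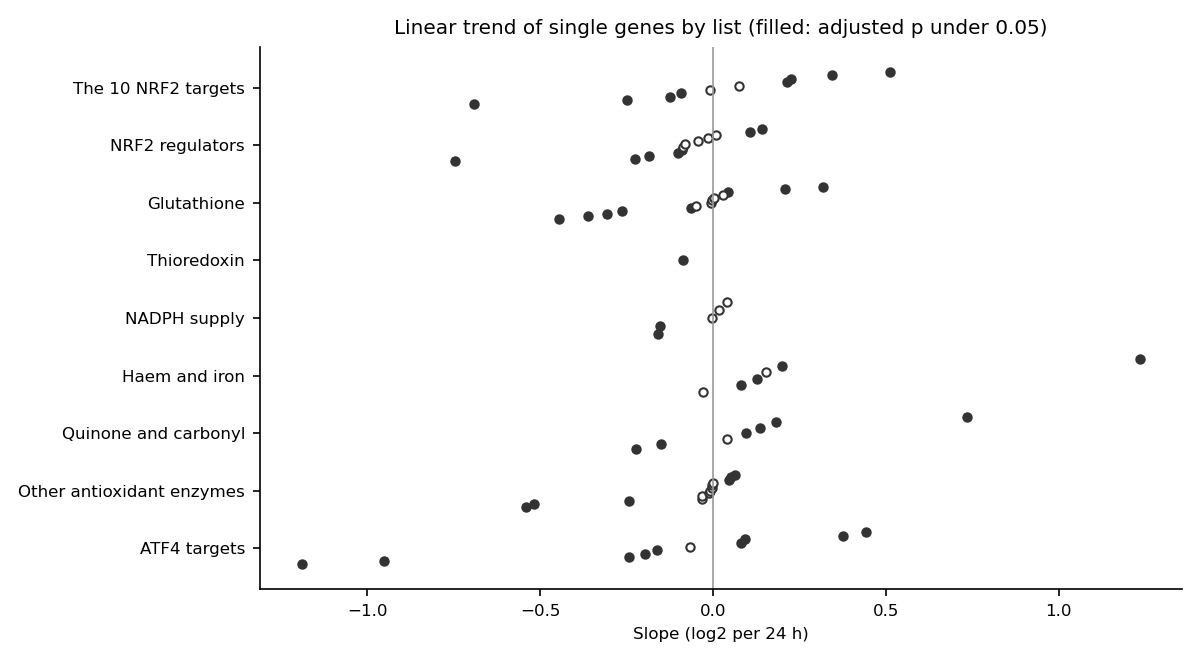
Slope in log2 per 24 h (horizontal axis) of every measured gene of 9 lists, 1 point per gene, filled where the adjusted p is under 0.05. Every list with more than 1 measured gene other than NADPH supply and haem and iron has filled points on both sides of 0; Slc40a1, at 1.24, is the point farthest to the right.

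For comparison, 13 measured antioxidant enzymes outside the NRF2 list gave 3 that rose and 3 that fell. Of the 13, 12 lay above the median level, where 26.4% of probe sets rose and 26.4% fell. Mitochondrial Sod2 fell by 0.24 ± 0.03 (adjusted p = 3.5e-09), extracellular Sod3 by 0.54 ± 0.11 (adjusted p = 5.1e-05) and mitochondrial Txnrd2 by 0.52 ± 0.11 (adjusted p = 1.2e-04). The fall of Sod3 lay in the later window, with 0.35 ± 0.15 before hour 44 and −1.50 ± 0.16 after it (adjusted p = 5.5e-06). Sod1, Gpx4 and Prdx4 rose by 0.05 ± 0.01, 0.05 ± 0.02 and 0.06 ± 0.02 (adjusted p = 2.0e-04, 0.042 and 0.048). The slope of Prdx4 went from −0.06 ± 0.05 before hour 44 to 0.20 ± 0.05 after it (change of slope, adjusted p = 0.044). Prdx2, which missed the line test (adjusted p = 0.45), went from −0.08 ± 0.02 to 0.06 ± 0.02 (change of slope, adjusted p = 0.028). ATF4, the factor of the amino acid stress response that also acts on Slc7a11, has 10 genes in its list, of which 4 rose and 5 fell. All 10 lay above the median level, where the same 26.4% applies each way. Ddit3 rose by 0.38 ± 0.03 (adjusted p = 2.4e-13) and Trib3 by 0.44 ± 0.12 (adjusted p = 0.0035), with Atf4 at 0.09 ± 0.02 (adjusted p = 0.0018) and Psat1 at 0.08 ± 0.03 (adjusted p = 0.030). Of these, 3 bent downward in the line with its bend fixed at hour 44, where 4.4% of all probe sets bent downward. No such share was taken above the median level. Ddit3 went from 0.67 ± 0.04 to 0.06 ± 0.05 (adjusted p = 4.8e-07), Trib3 from 1.10 ± 0.22 to −0.27 ± 0.23 (adjusted p = 0.023) and Psat1 from 0.23 ± 0.05 to −0.08 ± 0.06 (adjusted p = 0.047). Chac1, which missed the line test (adjusted p = 0.57), also bent downward, from 0.63 ± 0.17 to −0.81 ± 0.18 (change of slope, adjusted p = 0.0010). Cth, the cystathionine lyase that makes cysteine, fell by 1.19 ± 0.05 (adjusted p = 1.2e-24), a fitted 5.03-fold fall, and Atf3 by 0.95 ± 0.12 (adjusted p = 7.4e-09). The fall of Cth was steeper after hour 44, at −1.47 ± 0.09, than before it, at −0.93 ± 0.09 (change of slope, adjusted p = 0.032). Slc3a2, the partner chain of the Slc7a11 carrier, fell by 0.20 ± 0.02 (adjusted p = 2.2e-09), Sesn2 by 0.24 ± 0.09 (adjusted p = 0.037) and asparagine synthetase, Asns, by 0.16 ± 0.02 (adjusted p = 1.6e-08). Of the 67 measured genes of all 8 lists, 0 passed the 24 h test. Among all probe sets 0.293% passed, and among those above the median level 0.586%. At an unadjusted p under 0.05 there were 17 list genes. No share of all probe sets was taken at that limit, so the 17 are not read as a result.

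For each gene the nearest other gene after removal of the line was sought among 10366 genes above the median level, as a description over the 48 arrays, which share depth and RNA quality. Gstm1 lay nearest to Plaat3 (r = 0.93), Gclm to Bpnt2 (0.89), Osgin1 to Dtx4 (0.89), Gsta4 to the transcription factor Osr1 (0.86), Srxn1 to Rnf216 (0.85) and Slc7a11, at the floor, to Surf4 (0.83). Hmox1 lay nearest to haptoglobin, Hp, which binds free haemoglobin (0.75), Gclc to Mtmr2 (0.69), Nqo1 to Ccdc34 (0.66) and Txnrd1 to Ddx39b (0.64). With the line kept in, the genes nearest to Nqo1 were Ect2 (0.96), Nuf2 (0.96) and Cep55 (0.96), all known for their part in mitosis and cytokinesis; they were named after their values were seen, and a shared fall alone raises an r of this kind.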

How the data were processed

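Total RNA from NIH3T3 cells was labelled and hybridised to Affymetrix mouse genome arrays, 1 array per hour, 48 in all. The authors deposited 1 linear intensity per probe set and array, from 34.8 to 829048, already background-corrected and normalized between arrays. GCRMA is the method in the paper, whereas the submitters' processing notes list MAS5, and no version was found in the paper or the labels. Log2 of the deposited intensity was taken with no constant added. In the platform annotation 34945 of the 45037 probe sets had 1 gene symbol, 932 several and 9160 none; 64 control probe sets served for array quality only. Hours came from the sample titles, since the treatment note gives 20 hours for every sample.

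Each probe set was fitted with limma 3.58.1 in R 4.3.3 (a line, slopes per 24 h, with a 24 h cosine; then a bend at hour 44, or a cosine of 12 h or 8 h), with moderated tests and Benjamini-Hochberg adjustment over all 45037 probe sets at 0.05. The p-values of Fisher's G-test were exact and were turned into Storey q-values. COSOPT, named by the methods, was not run. Scripts were tested on simulated data. The 10 genes, the gene lists and the tests were chosen with earlier results of these data known. By rule, the text names the 10 genes, their other probe sets that passed, every NRF2 regulator, at most 4 passing genes per list by the size of the change, and the nearest gene of each of the 10. Further genes of lists whose count was 5 or fewer, and list genes with a change of slope, were named after their values were seen. Alternatives covered RNA quality, normalization, filters, hours, probe sets and scale. The hourly arrays are treated as separate samples, though nothing states that the dishes were independent cultures. Their number limits the precision.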

Additional observations from a re-analysis of the deposited data

Results flagged for a closer look

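The slope differed between the windows, hours 20 to 43 against hours 44 to 67, by limma's test of a change of slope for 3 of the 10 genes. Among all probe sets 4.4% bent downward and 3.03% upward. For Osgin1 the later slope minus the earlier one was −1.062 log2 per 24 h, with the direction turned from rise to fall. For Hmox1 the difference was −0.3761, with the rise of the earlier window followed by a slope near 0. For Gsta4 it was −0.3484, with a rise in both windows. Of the 10 arrays with a β-actin difference over 1.4, 7 were in the earlier window, and with that difference in the model the values were −1.05, −0.39 and −0.40.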

How the results depend on the processing

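The trend model gave 4 genes that rose and 4 that fell under most alternatives. The exceptions were 3 that rose without hours 20 to 25 (Osgin1 missed), 5 that rose with a term for hours 52 to 55 (Gclm passed at 0.11, adjusted p = 0.040) and 5 that fell without the 10 arrays of β-actin difference over 1.4 (Slc7a11 passed). Without hours 20 to 25 the slope of Hmox1 was 0.14, and as means of all probe sets those of Txnrd1 and Gstm1 were −0.18 and 0.21. Leave-one-out over the 48 arrays gave 4 that rose, 4 to 5 that fell (Slc7a11 passed without hour 66 or 67), 0 with a 24 h cosine and 3 with a change of slope (without hour 67 Gsta4 missed and Txnrd1 passed, adjusted p = 0.048). The slope of Gclm turned to −0.0048 without the 10 arrays and to −0.025 as the mean of its probe sets. The change of slope of Srxn1, 0.0078 in the report, turned to −0.038 with the β-actin difference in the model, −0.0072 with the term for hours 52 to 55, −0.0034 after quantile normalization, −0.033 after centring and −0.012 with 4 h blocks, and that of Slc7a11 to −0.012 after centring; none of these passed, and the cause was not tested. The G-test called 1 gene in place of 9 once the line was removed. Pairs with a positive r numbered 11, against 3 without the 10 arrays and 6 without the 2 extreme arrays of each pair. Pairs with a negative r numbered 6, against 0 and 1 under the same settings and 20 with the line kept. Over all probe sets, 7286 fell, against 13066 without the 10 arrays; as means per gene, 2967 rose and 3551 fell, since fewer features were tested. The 24 h count was 132, against 79 with the β-actin term, 55 without the 10 arrays, 251 with the term for hours 52 to 55, 223 among probe sets above the median, 53 without hours 20 to 25 and 30 with 4 h blocks. The change of slope count was 3346, against 5122 with the β-actin term, 1623 with blocks and 25877 without hours 20 to 25, a setting added after the data were seen in which Gclm (0.58) and Slc7a11 (0.05) passed as well. At an unadjusted p under 0.05, the 12 h count was 579, against 1309 with the β-actin term and 2105 with the term for hours 52 to 55, and the 8 h count was 20028, against 4658 with that term, 7939 after quantile normalization and 4125 after centring; with the β-actin term 1 probe set passed at 8 h after adjustment, against 0. The G-test count at 24 h was 468, against 69 without the line and 1985 with the 10 arrays replaced by their neighbours. The windows matched on the hour of the cycle, later minus earlier, also gave 4 that rose and 4 that fell, with Nqo1 at −0.67 ± 0.03. No replicate numbers are shared between groups, since all arrays belong to 1 group. With 1 array per hour, amplitudes below the scatter around the fit could have been missed, such as 0.07 against a scatter of 0.11 for Hmox1.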
